A study of Mus musculus with 46 samples.

Results

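The livers of 12 male C57BL6/J mice fed rapamycin (Rapa) were set against those of 11 male C57BL6/J mice fed the same diet without it (AL, ad libitum), which together are 23 of the 46 arrays of the study. Members were taken by the group named in the sample labels. Rapa mice ate freely of a diet with 14 ppm of microencapsulated rapamycin, AL mice ate the control diet freely, and both diets were given for 6 months, beginning at 2 months and ending at 8 months of age. The other arrays are of 12 mice on rapamycin together with dietary restriction (Rapa+DR) and 11 mice on dietary restriction alone (DR), a restriction of 40% in the labels. They enter below where they show whether an effect of rapamycin also appeared in restricted mice. Each array is the whole liver RNA of 1 mouse, so fewer cells of a type and less RNA per cell cannot be told apart. The labels and methods give neither the slide nor the scan of an array, and these could not be tested as batches.

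Rapamycin binds the immunophilin FKBP12, and the pair inhibits mTOR complex 1, the kinase that couples amino acids, insulin and energy to protein synthesis, ribosome production, lipid synthesis and the restraint of autophagy. Long exposure can also disturb mTOR complex 2, which acts on Akt. The liver is a secretory and metabolic organ: hepatocytes make most plasma proteins in the endoplasmic reticulum (ER), and they synthesize cholesterol, break down amino acids and clear drugs.

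Levels are given in log2 units. They are the deposited z-scores of each array brought back to a log2 scale at the mean spread of all arrays, so a difference of 1 unit is a 2-fold difference in signal at that spread. A probe was called higher or lower where the limma test gave a Benjamini-Hochberg adjusted p under 0.05 over 16492 probes above background and the group medians differed by more than 15% in the same direction. Errors of differences are standard errors (SE) from that fit. A gene is described on its brightest probe, and of the 58 called genes examined singly that have another tested probe, 35 had another called the same way and 1, Acaa2, another called the opposite way. By this rule 1223 probes of 970 genes stood higher under rapamycin and 817 probes of 680 genes stood lower. These are 7.42% and 4.95% of the probes tested, and 4503 probes passed an unadjusted p of 0.05. Most changes were small. The median change was 0.40 among the higher probes and -0.34 among the lower ones, and 39 higher probes and 2 lower probes changed by more than 2-fold. Over the 11414 genes tested, each by its brightest probe, 7.06% were higher, 5.39% were lower and the median change was -0.008. The groups overlapped for nearly all probes. Only 4 probes separated every Rapa mouse from every AL mouse, 2 higher (0.0121% of the probes) and 2 lower (0.0121%). The higher ones were a probe of Zc3h7a and a probe without a gene name, and the lower ones were probes of Glmp and Rxra.

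No difference between the groups was found in the spread of an array or in the share of probes above background. The log2 signals of an array had an SD of 1.28 ± 0.131 in Rapa and 1.28 ± 0.116 in AL (SD, n = 12 and 11; permutation p = 0.883), and 38.8 ± 3.49% of probes lay above background in Rapa against 38.6 ± 2.92% in AL (permutation p = 0.861). The background signal itself was lower in Rapa, at 78.9 ± 4.01 against 84.9 ± 4.73 in AL (permutation p = 0.0031, adjusted p = 0.0093 over the 3 measures, each two-sided). With the background level as a covariate, 1199 probes were higher and 645 lower, and the genes described below that lose their call in that fit are marked there. Atg7 (adjusted p = 0.062) and Cd74 (adjusted p = 0.0756), which are only named below, lost theirs in that limma fit as well. Array AL 3 had the lowest mean correlation with its own group (0.965), and Rapa 4, Rapa 2 and Rapa 3 had the lowest among the Rapa mice (0.966 to 0.970). Without AL 3, 1365 probes were higher and 981 lower, and over all 23 fits that left out 1 mouse the counts ran from 1044 to 1377 and from 637 to 981. Of the 12 lists of cell markers, the one for hepatocytes (8 genes tested) had 0 members called by limma and by ANOVA contrasts, and 1 at an unadjusted p under 0.05.

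**Figure D1:**
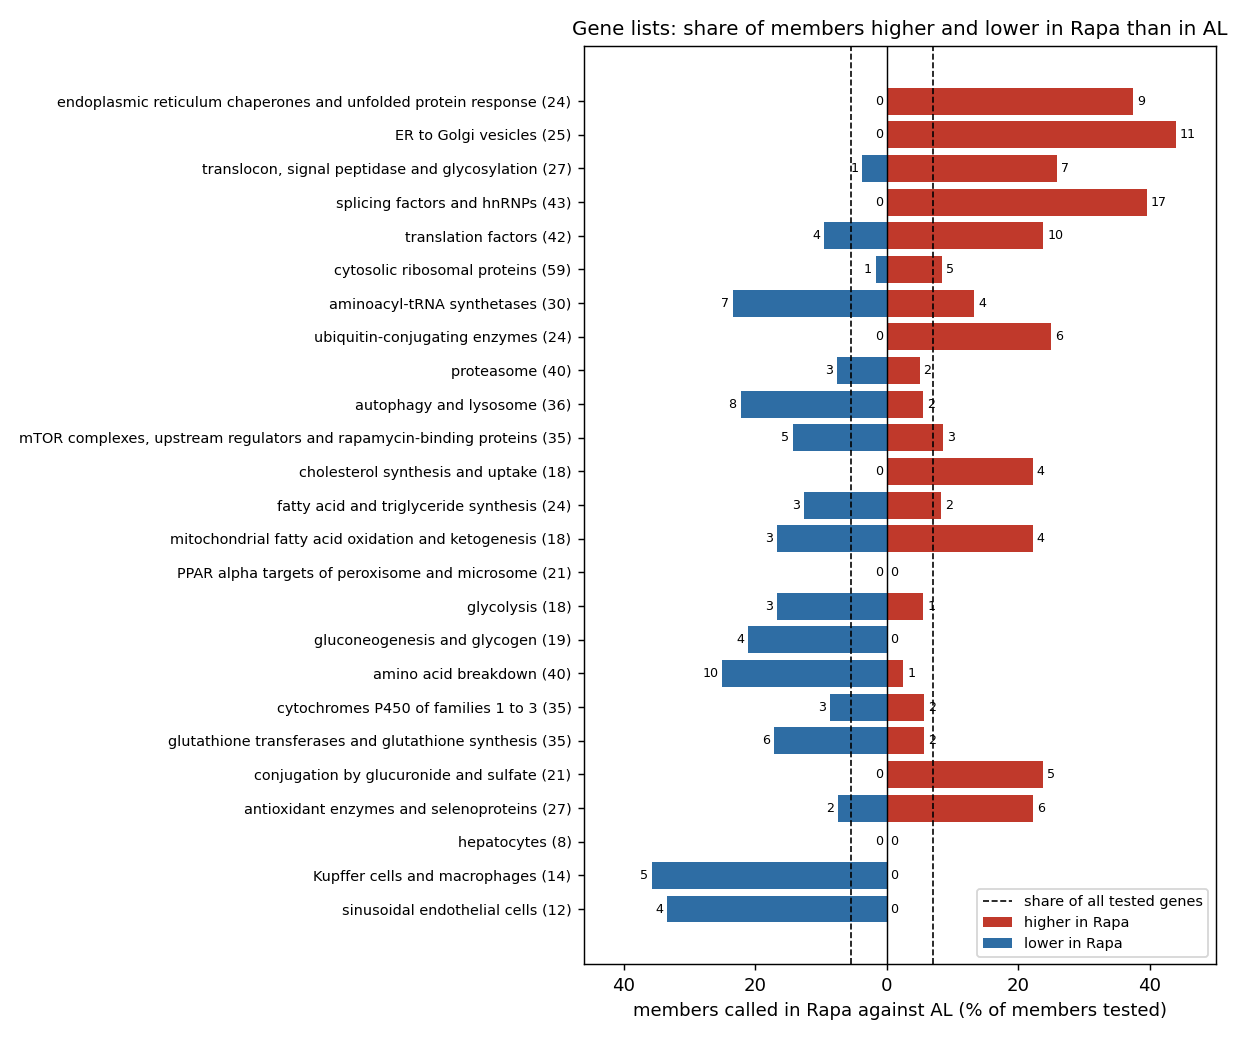
Share of the members of 25 gene lists that were called higher (bars to the right) or lower (bars to the left) in Rapa than in AL, in % of the members tested, whose number stands in brackets. Figures at the bar ends are counts, and dashed lines mark the shares over all tested genes, 7.06% higher and 5.39% lower. ER to Golgi vesicles, splicing factors and ER chaperones have the longest bars to the right, and marker genes of Kupffer cells and sinusoidal endothelial cells the longest to the left.

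Where ER chaperones and other genes of the unfolded protein response were called, they were higher in Rapa. Secreted proteins fold in the ER with the help of these chaperones, and when unfolded protein builds up, the sensors ATF6, IRE1 and PERK switch on the genes that fold or degrade it. Of 24 genes tested on this list, 9 were higher and 0 lower, with a median change of 0.26. Rapa mice had a mean level over the list of 9.42 to 10.41 (median 9.66) and AL mice one of 9.18 to 9.69 (median 9.36). The Rapa mouse at the top of that range was Rapa 3, which was also the highest for Creld2, Syvn1, Ero1b, Pdia4, Calr and Hsp90b1. Leaving out 1 mouse at a time gave 7 to 12 higher and 0 lower members.

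The mice highest on this list, Rapa 3 and Rapa 2 (10.41 and 10.00), were also the highest in acute phase genes and in targets of the glucocorticoid receptor. The mean level of 24 genes of the acute phase and IL-6 response was 11.27 in Rapa 2, 11.39 in Rapa 3, 10.29 in Rapa 1 and 9.53 to 9.92 in the other 9 Rapa mice, against 9.58 to 10.43 in AL mice. That of 12 glucocorticoid receptor targets was 9.36 in Rapa 2, 9.43 in Rapa 3, 8.94 in Rapa 12 and 8.11 to 8.59 in the other 9, against 8.04 to 8.58 in AL mice. In a fit without Rapa 2 and Rapa 3, chosen after these levels were seen, 1198 probes were higher and 631 lower. Of the 24 ER genes 8 were then higher and 0 lower, with a median change of 0.17, and Creld2 changed by 0.90 ± 0.24 (adjusted p = 0.00769) and Calr by 0.61 ± 0.13 (adjusted p = 0.00136). Of 138 genes called and examined singly 125 kept their call in that fit. The 13 others, all in the same direction as before, were Hyou1, Sumo3, Nsdhl, Cyp3a11, Cxcl1 and Clock among the higher and Rpl28, Atg7, Fads2, Ass1, Mgst3, Hamp2 and Cd74 among the lower.

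Some promoters of this list hold the ER stress response element (ERSE), the site of ATF6 and NF-Y, which consists of CCAAT and CCACG with any 9 bases between them. The 250 bases before the start of each gene were searched on both strands in RefSeq promoters of build GRCm38.p6. The element was found in 9 of the 23 genes of the list that have a promoter there, among them 5 of the 8 of these that were called higher, and in 0.113% of all 32851 promoters. Those of the 5 higher genes are shown 5′ to 3′ in the direction of the gene, with 20 bases on either side and the element in capitals. Only these were picked for display, because the genes were called higher. Where the element lies on the other strand it begins with CGTGG and ends with ATTGG. They lie at chr15:88819500-88819558 (plus strand, Creld2), chr19:6046512-6046570 (plus strand, Syvn1), chr13:12565662-12565720 (plus strand, Ero1b), chr8:84847055-84847113 (minus strand, Calr) and chr10:86705513-86705676 (minus strand, Hsp90b1).
Creld2: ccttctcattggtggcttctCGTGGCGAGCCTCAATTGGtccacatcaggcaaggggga
Syvn1: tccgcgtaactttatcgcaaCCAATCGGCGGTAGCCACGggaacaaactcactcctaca
Ero1b: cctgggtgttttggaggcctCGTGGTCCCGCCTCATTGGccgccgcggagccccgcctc
Calr: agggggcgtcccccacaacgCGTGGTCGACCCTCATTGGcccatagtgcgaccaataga
Hsp90b1: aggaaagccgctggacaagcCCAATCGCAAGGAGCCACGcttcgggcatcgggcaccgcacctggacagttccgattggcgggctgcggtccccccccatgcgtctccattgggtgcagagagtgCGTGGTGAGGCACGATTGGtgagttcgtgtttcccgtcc

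Of the 14 tested genes with the element, 9 are on the list, 5 were called higher and 0 lower, and the median change was 0.18. The 5 outside the list, Acnat2, Alg12, Calr4, Hnrnpa3 and Pan2, were not called. On the list, Hspa5, Dnajc3, Pdia6 and Derl3 also hold the element and were not called, with changes of 0.22, 0.14, 0.10 and 0.06. A match is a run of letters and was not tested as a site.

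Creld2, an ER-resident protein induced by ER stress, had levels of 8.44 to 11.64 in Rapa mice (median 9.61) and 8.07 to 9.22 in AL mice (median 8.74). In 9 of the 12 Rapa mice it was above the highest AL mouse, and the change was 1.19 ± 0.27 (adjusted p = 0.00127). Dnajb9, an Hsp40 co-chaperone of BiP, ran from 8.47 to 10.69 in Rapa mice (median 9.79) and 7.85 to 9.41 in AL mice (median 8.87). It too was above every AL mouse in 9 Rapa mice, with a change of 1.09 ± 0.23 (adjusted p = 0.000682). Syvn1, the ubiquitin ligase of ER-associated degradation (Hrd1), was at 11.63 to 13.88 in Rapa mice (median 12.04) and 10.78 to 12.14 in AL mice (median 11.62), a change of 0.82 ± 0.19 (adjusted p = 0.00224). All 12 Rapa mice lay above the AL median. For Ero1b, an oxidase that renews disulfide bonds, levels were 8.54 to 9.82 in Rapa mice (median 9.13) and 7.96 to 9.01 in AL mice (median 8.36), and the change was 0.77 ± 0.13 (adjusted p = 6.96e-05). The disulfide isomerase Pdia4 had 9.72 to 11.28 in Rapa mice (median 10.07) and 8.81 to 10.29 in AL mice (median 9.37), a change of 0.71 ± 0.15 (adjusted p = 0.00109).

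Calr (calreticulin, a lectin chaperone of glycoproteins) was at 8.46 to 9.69 in Rapa mice (median 9.07) and 7.86 to 9.17 in AL mice (median 8.34). The groups overlapped, and 4 Rapa mice lay above every AL mouse, with a change of 0.68 ± 0.13 (adjusted p = 0.000243). Hsp90b1, the ER form of Hsp90 (Grp94), was at 11.23 to 12.51 in Rapa mice (median 11.93) and 10.94 to 11.75 in AL mice (median 11.36), a change of 0.54 ± 0.12 (adjusted p = 0.00131). Hyou1, a chaperone, and Sel1l, the partner of Syvn1, changed least, by 0.28 ± 0.10 and 0.26 ± 0.08. The call of Hyou1 was lost in 7 of 9 alternative fits and in 12 of 23 fits without 1 mouse, and that of Sel1l in 2 of 9 and without Rapa 3 or AL 8. Hspa5 (BiP), the main chaperone of the ER lumen, had a dim probe, with a mean of 6.78 in Rapa mice and 6.56 in AL mice. It changed by 0.22 ± 0.07 (adjusted p = 0.0338) and was not called, since its medians differed by less than 15%.

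Outside the list, 3 more genes of ER stress or folding were higher. Serp1, which protects membrane proteins during ER stress, was at 10.38 to 11.63 in Rapa mice (median 10.87) and 8.86 to 10.75 in AL mice (median 9.61). Every Rapa mouse was above the AL median and 7 were above every AL mouse, a change of 1.16 ± 0.18 (adjusted p = 2.25e-05). Selenof, an ER selenoprotein of the folding machinery, changed by 1.03 ± 0.18 (adjusted p = 9.17e-05), and Atf4, the transcription factor downstream of PERK, by 0.57 ± 0.11 (adjusted p = 0.000156). Of 19 targets of ATF4 on a separate list, Atf4 itself was the 1 called higher and 0 were lower, with a median of 0.01. Calls among genes of the cytosolic heat shock response were near the share of all genes: of 16 tested, 1 was higher and 0 lower, with a median of 0.06. The mean level of that list was 8.96, 8.94, 9.06, 9.02 and 9.25 in Rapa 2, 3, 10, 11 and 12, above the highest AL mouse (8.92), and overlapped AL in the other 7. The 1 called was Rbm3, a cold-inducible RNA-binding protein (change 0.81 ± 0.14, adjusted p = 8.6e-05).

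**Figure D2:**
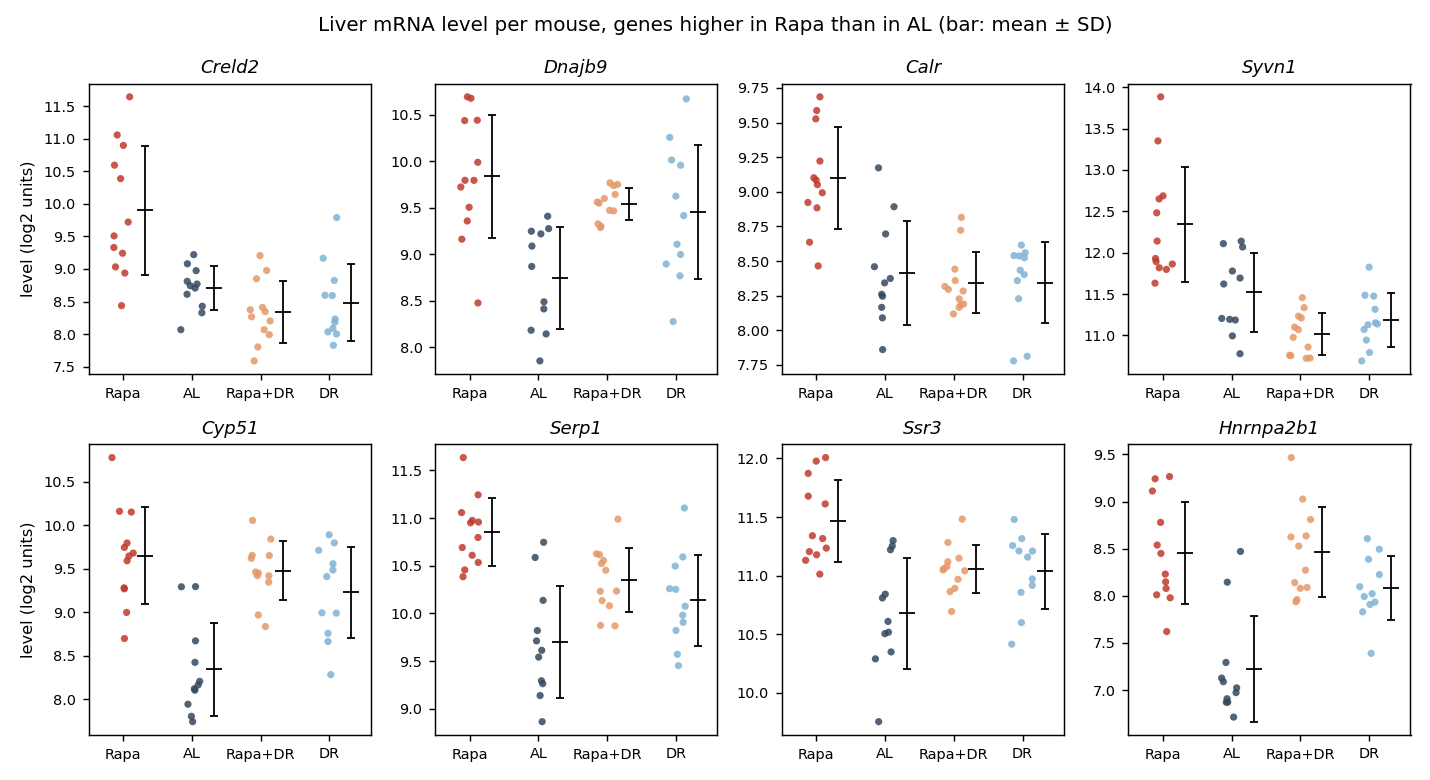
Level of 8 genes in each mouse (log2 units), in Rapa, AL, Rapa+DR and DR mice from left to right; points are mice and bars the mean ± SD. The ER genes Creld2, Calr and Syvn1 are highest in Rapa and stay low in Rapa+DR, whereas the means of Dnajb9, Serp1, Ssr3, Cyp51 and Hnrnpa2b1 are lowest in AL.

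The called genes of the route that proteins take after folding were higher as well. Of 25 genes of vesicle traffic between ER and Golgi, 11 were higher and 0 lower. The median change was 0.18, and 8 to 12 were higher without 1 mouse at a time. The mean level of the list was 8.96 to 9.31 in Rapa mice (median 9.04) and 8.75 to 9.15 in AL mice (median 8.83), where AL 3 and AL 7 lay within the Rapa range and the other 9 AL mice below it. Bet1, a SNARE of these vesicles, was at 7.16 to 7.83 in Rapa mice (median 7.53) and 6.73 to 7.34 in AL mice (median 6.95). In 9 Rapa mice it exceeded every AL mouse, and the change was 0.53 ± 0.08 (adjusted p = 2.43e-05). Sar1b, the GTPase that starts the COPII coat, had 11.51 to 13.20 in Rapa mice (median 12.32) and 11.13 to 12.38 in AL mice (median 11.52), a change of 0.58 ± 0.16 (adjusted p = 0.00991). The COPII coat protein Sec23b changed by 0.52 ± 0.11 (adjusted p = 0.00061) and the SNARE Gosr2 by 0.44 ± 0.09 (adjusted p = 0.000555).

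For entry into the ER, 7 of 27 genes of the translocon, the signal peptidase and N-glycosylation were higher and 1 lower (median change 0.05). Ssr3, a subunit of the translocon-associated complex, had levels of 11.01 to 12.01 in Rapa mice (median 11.33) and 9.75 to 11.30 in AL mice (median 10.61). All 12 Rapa mice were above the AL median, with a change of 0.79 ± 0.14 (adjusted p = 0.000113). Ostc, a subunit of oligosaccharyltransferase, was at 10.01 to 11.09 in Rapa mice (median 10.46) and 9.26 to 10.41 in AL mice (median 9.69), a change of 0.77 ± 0.15 (adjusted p = 0.000244). The signal peptidase subunit Spcs3 changed by 0.68 ± 0.11 (adjusted p = 4.75e-05) and the channel subunit Sec61b by 0.72 ± 0.18 (adjusted p = 0.00335). Pigt, which attaches glycolipid anchors to proteins in the ER, was among the 12 largest decreases, at 7.01 to 8.30 in Rapa mice (median 7.62) and 7.66 to 8.84 in AL mice (median 8.53), a change of -0.71 ± 0.16 (adjusted p = 0.00122).

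Messenger RNAs of splicing factors and related RNA-binding proteins were the most numerous of the higher genes by list. Of 43 splicing factors and heterogeneous nuclear ribonucleoproteins (hnRNPs), 17 were higher and 0 lower. The median change was 0.16, and 16 to 19 were higher without 1 mouse at a time. Rapa mice had a mean level of 8.23 to 8.41 (median 8.35) and AL mice of 7.97 to 8.34 (median 8.10). In 10 of the 11 AL mice it lay below every Rapa mouse, with AL 7 as the exception. DR mice without rapamycin had a mean level of 8.18 to 8.40, almost the range of Rapa mice. Over the list the median of DR minus AL was 0.12 and that of Rapa+DR minus DR 0.005. DR minus AL was 0.85 ± 0.20 for Hnrnpa2b1, 0.50 ± 0.15 for Hnrnph1 and 0.52 ± 0.15 for Srsf5. In Rapa and AL mice the levels of these genes were as follows. Hnrnpa2b1 was at 7.62 to 9.26 in Rapa mice (median 8.34) and 6.71 to 8.47 in AL mice (median 7.02), a change of 1.23 ± 0.20 (adjusted p = 2.92e-05). Its other tested probe was not called. Hnrnph1 had levels of 7.27 to 8.60 in Rapa mice (median 7.92) and 6.58 to 7.75 in AL mice (median 6.84), with a change of 0.96 ± 0.14 (adjusted p = 1.1e-05), and 2 of its 4 other probes were called the same way. Srsf5, a serine- and arginine-rich splicing factor, was above every AL mouse in 10 of 12 Rapa mice, at 8.64 to 9.85 in Rapa mice (median 9.34) and 7.90 to 8.80 in AL mice (median 8.48), a change of 0.87 ± 0.15 (adjusted p = 7.11e-05).

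Genes of the translation apparatus, which mTOR complex 1 controls, were called in both directions. Of 42 initiation and elongation factors, 10 were higher and 4 lower (median 0.02), and without AL 3 these counts were 13 and 8. Eif2s3x, the gamma subunit of eIF2, changed by 0.60 ± 0.10 (adjusted p = 4.24e-05) and Eef1b2, an exchange factor of elongation, by 0.61 ± 0.13 (adjusted p = 0.000563). Among cytosolic ribosomal proteins 5 of 59 were higher and 1 lower (median change 0.04), a share near that of all genes, with 9 higher without Rapa 4 and 3 without AL 8. Rps7 was at 11.15 to 12.88 in Rapa mice (median 12.00) and 10.19 to 11.53 in AL mice (median 10.99). In 11 of 12 Rapa mice it was above every AL mouse, and the change was 0.96 ± 0.13 (adjusted p = 3.85e-06). Mitochondrial ribosomal proteins had 7 higher and 5 lower of 72 (median -0.06), and 12 lower without AL 3. Those 7 and 5 are 9.72% and 6.94%, near the 7.06% and 5.39% of all genes. Among 30 aminoacyl-tRNA synthetase genes, 4 were higher and 7 lower (median -0.05). Kars, the synthetase for lysine, was below every AL mouse in 11 Rapa mice, at 8.22 to 8.64 in Rapa mice (median 8.45) and 8.59 to 9.14 in AL mice (median 8.79), a change of -0.36 ± 0.06 (adjusted p = 2.25e-05), and Vars, that for valine, changed by -0.44 ± 0.09 (adjusted p = 0.000682).

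Genes of the mTOR pathway itself changed little and in both directions. Of 35 genes of the complexes, their upstream regulators and rapamycin-binding proteins, 3 were higher and 5 lower (median change -0.06). These are 8.57% and 14.3%, against 7.06% and 5.39% of all genes. The higher ones were Rheb, the GTPase that activates complex 1, Rictor, the defining subunit of complex 2, and Rps6, the ribosomal protein that S6 kinase phosphorylates. Rictor had levels of 7.47 to 8.15 in Rapa mice (median 7.85) and 7.07 to 7.82 in AL mice (median 7.32). The change was 0.51 ± 0.11 (adjusted p = 0.000716), and 7 Rapa mice were above every AL mouse. Rps6 was at 10.88 to 12.13 in Rapa mice (median 11.50) and 9.99 to 11.32 in AL mice (median 10.87), a change of 0.63 ± 0.12 (adjusted p = 0.00029). DR mice without rapamycin also stood above AL mice for these 3, by 0.54 ± 0.13 (Rheb), 0.52 ± 0.11 (Rictor) and 0.64 ± 0.13 (Rps6). The lower ones were Akt1s1 (PRAS40, an inhibitor within complex 1), Tsc2 and Tbc1d7, which belong to the complex that inactivates Rheb, Depdc5, a subunit of the amino acid sensing complex GATOR1, and Fkbp8, a member of the FKBP family. Tsc2 ran from 8.82 to 9.85 in Rapa mice (median 9.63) and 9.74 to 10.43 in AL mice (median 9.97). In 9 Rapa mice it was below every AL mouse, with a change of -0.48 ± 0.10 (adjusted p = 0.000617). For Akt1s1 the levels were 8.24 to 8.95 in Rapa mice (median 8.70) and 8.54 to 9.54 in AL mice (median 9.19), a change of -0.52 ± 0.10 (adjusted p = 0.000367). Fkbp8 changed by -0.38 ± 0.10, Tbc1d7 by -0.31 ± 0.09 and Depdc5 by -0.21 ± 0.06, and the call of Tbc1d7 was lost with the background level as a covariate. The lower genes were also below AL in DR mice without rapamycin. There the differences were -0.33 ± 0.11 (Akt1s1), -0.35 ± 0.10 (Tsc2), -0.23 ± 0.10 (Fkbp8), -0.48 ± 0.09 (Tbc1d7) and -0.15 ± 0.06 (Depdc5). Among 6 genes of AMP-activated kinase and its activator, the catalytic subunit Prkaa2 was higher, while the gamma subunit Prkag1 (-0.32 ± 0.07, adjusted p = 0.0005) and the upstream kinase Stk11 (LKB1, -0.36 ± 0.09, adjusted p = 0.0049) were lower. DR mice were above AL mice for Prkaa2 too, by 0.62 ± 0.13. Of 15 genes of insulin signalling 1 was lower (6.67%, near the 5.39% of all genes), Gsk3b (-0.30 ± 0.07, adjusted p = 0.00297), and 0 were higher.

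In protein turnover, 6 of 24 ubiquitin-conjugating enzymes were higher and 0 lower (median change 0.10). Ube2b, which acts in DNA damage tolerance, was at 10.29 to 11.10 in Rapa mice (median 10.53) and 9.45 to 10.49 in AL mice (median 9.90). In 9 Rapa mice it exceeded every AL mouse, a change of 0.74 ± 0.10 (adjusted p = 3.79e-06). Ube2n changed by 0.36 ± 0.08 (adjusted p = 0.00105), and Sumo3, a ubiquitin-like modifier, by 0.41 ± 0.12 (adjusted p = 0.012). The proteasome as a list was near the background, with 2 of 40 higher and 3 lower. Its 20S subunit Psma4 was higher (0.54 ± 0.09, adjusted p = 4.81e-05), and of the 2 subunits of the PA28 activator Psme2 was higher (0.53 ± 0.08, adjusted p = 2.25e-05) and Psme1 lower (-0.44 ± 0.09, adjusted p = 0.00038).

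Of 36 autophagy and lysosome genes, 2 were higher and 8 lower (median change -0.09). The count of lower genes ran from 4 to 12 without 1 mouse at a time, being 4 without AL 5 or AL 8 and 5 without AL 1, AL 4, AL 10, Rapa 3 or Rapa 7, and without AL 3 there were 4 higher and 7 lower. Ctsz, a lysosomal carboxypeptidase, had 8.29 to 9.16 in Rapa mice (median 8.68) and 8.60 to 9.78 in AL mice (median 9.52). All 12 Rapa mice were below the AL median, with a change of -0.71 ± 0.10 (adjusted p = 2.84e-06). Hexa, a subunit of hexosaminidase, was at 7.97 to 8.79 in Rapa mice (median 8.37) and 8.36 to 9.32 in AL mice (median 8.76), a change of -0.39 ± 0.09 (adjusted p = 0.00232). Glmp, a membrane glycoprotein of the lysosome, separated the groups, at 8.68 to 9.10 in Rapa mice (median 9.02) and 9.13 to 9.47 in AL mice (median 9.28). The change was -0.33 ± 0.05 (adjusted p = 1.71e-05) and its 2 other probes were called the same way. Atg12, a ubiquitin-like protein of the autophagosome, was higher (0.34 ± 0.10, adjusted p = 0.0129).

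The cholesterol synthesis genes that were called were higher. Of 18 genes of cholesterol synthesis and uptake, 4 were higher and 0 lower (median change 0.11), and without AL 2 or Rapa 9 the count was 2. All 4 are enzymes between squalene and cholesterol. Cyp51, the lanosterol demethylase, had 8.70 to 10.78 in Rapa mice (median 9.66) and 7.75 to 9.29 in AL mice (median 8.17). In 8 Rapa mice it was above every AL mouse, and its change of 1.30 ± 0.20 (adjusted p = 1.71e-05) was the third largest increase by the rule for named genes. Sqle, squalene epoxidase, was at 9.53 to 11.37 in Rapa mice (median 10.20) and 8.66 to 10.63 in AL mice (median 9.48), a change of 0.80 ± 0.19 (adjusted p = 0.00291). Msmo1 (0.52 ± 0.16, adjusted p = 0.0239) and Nsdhl (0.50 ± 0.17, adjusted p = 0.0389) lost their calls in 5 of 9 alternative fits each, the background covariate among them, and Nsdhl in 15 of 23 fits without 1 mouse. Insig2, which holds back the activation of the sterol regulator SREBP, was higher too, at 10.53 to 11.94 in Rapa mice (median 11.16) and 9.83 to 11.21 in AL mice (median 10.42), a change of 0.74 ± 0.17 (adjusted p = 0.00244), with 2 other probes called the same way. A form of the sterol regulatory element, ATCAC and CCAC with any 1 base between them and searched on both strands, was not found in the 250 bases before the start of the 15 genes of this list that have a promoter in the table, and was found in 0.192% of all promoters.

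Other lipid genes were called both ways. Among 24 genes of fatty acid and triglyceride synthesis, 2 were higher and 3 lower (median -0.07). These are 8.33% and 12.5%, against 7.06% and 5.39% of all genes. The lower ones included Elovl1, a fatty acid elongase (-0.40 ± 0.09, adjusted p = 0.00169), and Lpin2, a phosphatidate phosphatase (-0.44 ± 0.12, adjusted p = 0.00608). Of 18 genes of mitochondrial fatty acid oxidation and ketone synthesis, 4 were higher and 3 lower (median 0.05), with 1 lower without AL 8. Acadm, the dehydrogenase for medium-chain fatty acids, had 12.19 to 13.10 in Rapa mice (median 12.82) and 11.35 to 12.99 in AL mice (median 12.17). The change was 0.64 ± 0.13 (adjusted p = 0.000573), with all Rapa mice above the AL median. Acaa2, a thiolase of the same pathway, changed by 1.02 ± 0.23 (adjusted p = 0.00165) on the brightest of its 4 probes. Another 2 probes were called higher with changes of 1.05 and 1.03, but the other one was called lower, with a change of -0.40 ± 0.10 (adjusted p = 0.00441), and on the brightest probe AL mice ranged beyond the Rapa mice on both sides. The synthetase Acsm3, which activates medium-chain acids, changed by 0.96 ± 0.18 (adjusted p = 0.000235). Of 21 targets of PPAR alpha in peroxisomes and microsomes, the program of fasting, 0 were called by limma and by ANOVA contrasts and 2 had an unadjusted p under 0.05, with a median of -0.04. Lcat, which esterifies cholesterol in plasma lipoproteins, was lower (-0.42 ± 0.11, adjusted p = 0.00866).

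Genes of sugar metabolism were lower where they were called, other than the glucose carrier Slc2a2 (GLUT2), which was at 9.30 to 10.87 in Rapa mice (median 10.32) and 8.63 to 10.82 in AL mice (median 9.48), a change of 0.74 ± 0.19 (adjusted p = 0.00554). Of 18 glycolysis genes 3 were lower, and of 19 genes of gluconeogenesis and glycogen 4 were lower and 0 higher. Aldoa, aldolase A, was at 7.94 to 8.93 in Rapa mice (median 8.66) and 8.33 to 9.30 in AL mice (median 8.94), a change of -0.38 ± 0.10 (adjusted p = 0.00677). Pcx, pyruvate carboxylase, which opens gluconeogenesis, had 8.50 to 9.08 in Rapa mice (median 8.87) and 8.64 to 9.49 in AL mice (median 9.20), a change of -0.41 ± 0.08 (adjusted p = 0.000321). Phka2, a regulatory subunit of the glycogen phosphorylase kinase of liver, changed by -0.35 ± 0.09 (adjusted p = 0.0031). In the tricarboxylic acid cycle and pyruvate dehydrogenase 3 of 23 genes were higher and 3 lower, and 2 and 5 without Rapa 9. Ogdh, a subunit of the 2-oxoglutarate dehydrogenase complex, was below every AL mouse in 10 of 12 Rapa mice, at 8.87 to 9.71 in Rapa mice (median 9.36) and 9.60 to 10.29 in AL mice (median 9.93), a change of -0.58 ± 0.09 (adjusted p = 1.85e-05). Cytosolic Idh1, which makes NADPH, was higher (1.08 ± 0.19, adjusted p = 0.000115). In the respiratory chain 4 of 38 genes of complex I were higher and 2 lower (10.5% and 5.26%, against 7.06% and 5.39% of all genes). The counts were 3 higher and 6 lower without AL 3 or Rapa 2, 4 and 5 without Rapa 1, and 2 and 3 without AL 1 or Rapa 7. In complexes II to V 6 of 44 were higher and 2 lower, but 4 and 6 without AL 3, 6 and 5 without AL 11, 6 and 4 without Rapa 1 or Rapa 10, and 5 and 4 without Rapa 2. Atp5pb, a stalk subunit of ATP synthase, was the second largest increase, at 9.15 to 10.65 in Rapa mice (median 9.90) and 7.95 to 9.66 in AL mice (median 8.38), a change of 1.31 ± 0.19 (adjusted p = 8.83e-06). Uqcrc1, a core subunit of complex III, was lower (-0.47 ± 0.09, adjusted p = 0.000448).

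Nearly all enzymes of amino acid breakdown that were called were lower. Of 40 tested, 10 were lower and 1 was higher, with a median of -0.15, and without 1 mouse 8 to 11 were lower, with 3 higher without AL 3. The mean level of the list was 10.16 to 10.51 in Rapa mice (median 10.34) and 10.33 to 10.68 in AL mice (median 10.49). Hpd, which breaks down tyrosine, was at 11.25 to 12.46 in Rapa mice (median 12.08) and 12.08 to 13.40 in AL mice (median 12.79). Every Rapa mouse was below the AL median and 6 were below every AL mouse, a change of -0.74 ± 0.17 (adjusted p = 0.0018). Sardh, which oxidizes sarcosine in mitochondria, had 7.63 to 8.90 in Rapa mice (median 8.12) and 8.35 to 8.97 in AL mice (median 8.88). In 9 Rapa mice it was below every AL mouse, with a change of -0.65 ± 0.13 (adjusted p = 0.000251). Prodh, proline dehydrogenase, was at 8.44 to 10.23 in Rapa mice (median 9.68) and 9.65 to 10.41 in AL mice (median 10.03), a change of -0.56 ± 0.14 (adjusted p = 0.00482). Agxt2, a mitochondrial aminotransferase, was the 1 member called higher (0.61 ± 0.15, adjusted p = 0.00367).

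Some enzymes around nitrogen went the other way. Of 10 genes of the urea cycle and ammonia, 2 were higher and 1 lower, and 5 and 1 without AL 3. The lower one was Ass1 (-0.59), whose call was lost without AL 4 and in 2 of 9 alternative fits. Glud1, which releases ammonia from glutamate, had 8.98 to 10.71 in Rapa mice (median 9.76) and 7.89 to 10.54 in AL mice (median 8.31). All Rapa mice were above the AL median, but only 2 were above every AL mouse, and the change was 1.13 ± 0.22 (adjusted p = 0.000235). Cth, which makes cysteine from cystathionine, was at 7.91 to 9.16 in Rapa mice (median 8.57) and 6.88 to 8.77 in AL mice (median 7.35), a change of 1.08 ± 0.19 (adjusted p = 8.41e-05), and Rida, a deaminase that removes reactive enamines, changed by 1.14 ± 0.19 (adjusted p = 3.47e-05). The other tested probe of Glud1 and that of Cth were not called. Slc38a3, the glutamine carrier of hepatocytes, was lower, at 10.86 to 12.06 in Rapa mice (median 11.53) and 11.34 to 12.78 in AL mice (median 12.38), a change of -0.77 ± 0.17 (adjusted p = 0.00105).

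**Figure D3:**
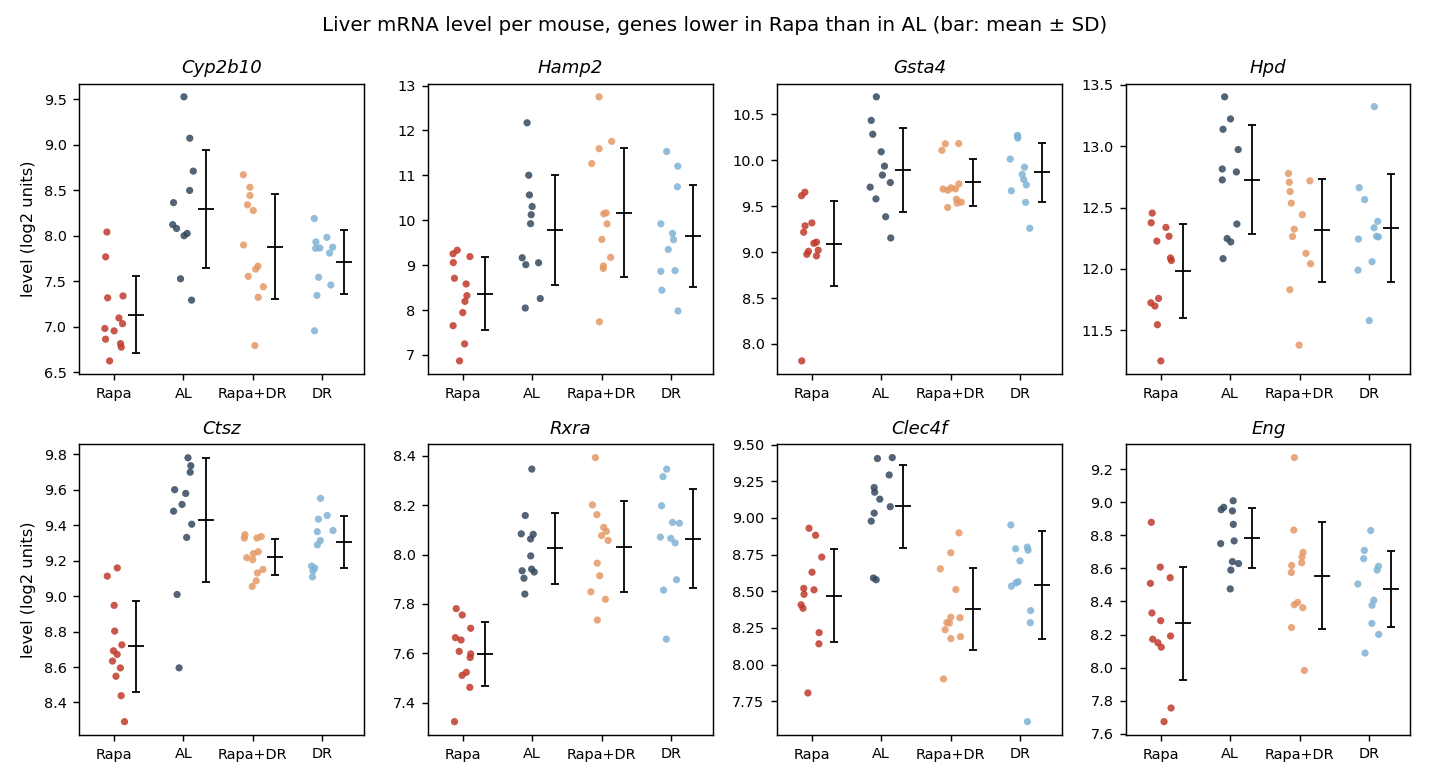
Level of 8 genes in each mouse (log2 units), in Rapa, AL, Rapa+DR and DR mice from left to right; points are mice and bars the mean ± SD. All 12 Rapa mice lie below all 11 AL mice for Rxra, and Cyp2b10, Gsta4 and Ctsz have lower means in Rapa than in the other 3 groups.

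In drug metabolism, 2 of 35 cytochromes P450 of families 1 to 3 were higher and 3 lower, shares near those of all genes, and 5 were lower without AL 11. Cyp2b10, the classic target of the xenobiotic receptor CAR, was at 6.62 to 8.04 in Rapa mice (median 7.01) and 7.29 to 9.53 in AL mice (median 8.12). All 12 Rapa mice were below the AL median and 8 were below every AL mouse, a change of -1.16 ± 0.21 (adjusted p = 0.000111). Cyp1a2 was at 11.81 to 12.74 in Rapa mice (median 12.12) and 12.12 to 13.49 in AL mice (median 12.75), a change of -0.60 ± 0.12 (adjusted p = 0.000436). Cyp3a11, a mouse P450 of the family that metabolizes rapamycin, had 11.77 to 13.55 in Rapa mice (median 12.80) and 10.48 to 14.06 in AL mice (median 11.58). The AL range enclosed the Rapa range, the change was 0.88 ± 0.28 (adjusted p = 0.0257), and the call was lost without AL 5, AL 6, AL 9 or AL 10 (adjusted p up to 0.0689) and with the background level as a covariate (adjusted p = 0.099). Cyp3a25 changed by 0.94 ± 0.20 (adjusted p = 0.00105). Rxra, the retinoid receptor that partners CAR, PXR, PPAR alpha and LXR, separated the groups, at 7.32 to 7.78 in Rapa mice (median 7.60) and 7.84 to 8.35 in AL mice (median 7.99), a change of -0.43 ± 0.07 (adjusted p = 2.78e-05).

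Conjugating enzymes for glucuronide and sulfate had 5 higher and 0 lower of 21, with a median of 0.19, and 9 higher and 1 lower without AL 3. Ugt2b35, a glucuronosyltransferase, was at 8.63 to 9.63 in Rapa mice (median 9.19) and 7.85 to 9.26 in AL mice (median 8.41), a change of 0.68 ± 0.14 (adjusted p = 0.000593). Sult2a8, a sulfotransferase, changed by 0.71 ± 0.16 (adjusted p = 0.00194) and Papss1, which makes the sulfate donor, by 0.58 ± 0.10 (adjusted p = 9.83e-05). Glutathione transferases and glutathione synthesis had 2 higher and 6 lower of 35 (median -0.06). Gsta4, which detoxifies products of lipid peroxidation, had 7.82 to 9.65 in Rapa mice (median 9.10) and 9.15 to 10.69 in AL mice (median 9.84). In 7 Rapa mice it was below every AL mouse, a change of -0.81 ± 0.16 (adjusted p = 0.000281). Gstt3 (-0.57 ± 0.15, adjusted p = 0.00554) and Mgst3 (-0.64 ± 0.19, adjusted p = 0.0156, a call lost under the background covariate) were lower and Gclm, which limits glutathione synthesis, was higher (0.53 ± 0.10, adjusted p = 0.000128). Gstm2 was not called on its brightest probe (-0.21 ± 0.13, adjusted p = 0.296), while 1 of its other 2 probes was called lower, with a change of -0.43 ± 0.14 (adjusted p = 0.031). Among 18 membrane carriers of hepatocytes, 3 were higher and 2 lower. Slco1b2, the uptake carrier for bile acids and drugs, was at 7.78 to 9.46 in Rapa mice (median 8.66) and 6.76 to 8.85 in AL mice (median 7.18), a change of 1.30 ± 0.25 (adjusted p = 0.000328), and Atp8b1, a lipid flippase of the bile canaliculus, changed by 0.90 ± 0.13 (adjusted p = 8.3e-06).

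Antioxidant enzymes and selenoproteins had 6 higher and 2 lower of 27 (median 0.05). Sephs2, which makes selenophosphate for selenocysteine, was at 10.37 to 11.48 in Rapa mice (median 11.08) and 8.35 to 11.23 in AL mice (median 9.70). The change was 1.23 ± 0.22 (adjusted p = 9.53e-05), with all Rapa mice above the AL median. Prdx3, the peroxiredoxin of mitochondria, changed by 0.82 ± 0.14 (adjusted p = 5.37e-05) and Cat, catalase, by 0.57 ± 0.13 (adjusted p = 0.00171).

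Among metallothionein and iron genes, 2 of 21 were lower (9.52%, against 5.39% of all genes) and 0 higher. Hamp2, a paralog of the hormone hepcidin, was at 6.87 to 9.33 in Rapa mice (median 8.45) and 8.04 to 12.17 in AL mice (median 9.92). AL mice spread over more than 4 log2 units, and the change of -1.42 ± 0.48 (adjusted p = 0.0339), the largest decrease, lost its call without Rapa 2, Rapa 3, Rapa 9, AL 2, AL 9 or AL 11 (adjusted p up to 0.0805). Tfr2, the transferrin receptor that regulates hepcidin, was at 10.50 to 11.32 in Rapa mice (median 10.74) and 10.89 to 11.81 in AL mice (median 11.29), a change of -0.53 ± 0.10 (adjusted p = 0.00032) that kept its call without any 1 mouse. The zinc importer Slc39a4 changed by -0.80 ± 0.18 (adjusted p = 0.00113).

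Of 21 chemokine and NF-kappaB targets, 2 were higher (9.52%, against 7.06% of all genes) and 0 lower. Cxcl1, a chemokine that attracts neutrophils, was the largest increase, at 7.70 to 11.85 in Rapa mice (median 8.35) and 7.10 to 8.50 in AL mice (median 7.47). The increase was uneven: Rapa 1, 2, 3, 11 and 12 had levels of 9.33, 11.22, 11.80, 10.26 and 11.85, above every AL mouse, and the other 7 Rapa mice lay within the AL range, with a change of 1.51 ± 0.42 (adjusted p = 0.00959). Without Rapa 2 and Rapa 3 it was 1.05 ± 0.38 (adjusted p = 0.058), which was not called. The neutrophil marker list had 0 of 6 members called by limma and by ANOVA contrasts, with 2 at an unadjusted p under 0.05, and its mean level was 7.35 in Rapa 2 and 6.81 in Rapa 3, against 6.33 to 6.72 in the other 10 Rapa mice and 6.36 to 6.62 in AL mice. Neutrophil markers and acute phase genes thus stood highest in 2 of the mice with high Cxcl1, and their part in the result was not tested beyond leaving these mice out. Cebpb, a transcription factor of the acute phase, was the 1 gene called of 24 acute phase and IL-6 response genes (0.75 ± 0.15, adjusted p = 0.000302), and without Rapa 2 and Rapa 3 it was still higher, by 0.69 ± 0.15 (adjusted p = 0.00146), with 3 other members lower. Of 12 genes of T cell cytokine signalling, Il15ra, a subunit of the IL-15 receptor, was higher (0.31 ± 0.07, adjusted p = 0.00211), and the kinases Zap70 (-0.55 ± 0.17, adjusted p = 0.025) and Jak3 (-0.22 ± 0.07, adjusted p = 0.0174) were lower. The call of Zap70 was lost without Rapa 3, Rapa 4 or AL 8 and in 1 of 9 alternative fits, and that of Jak3 without AL 6 and in 3 of 9, the background covariate among them (adjusted p = 0.0808).

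The markers of resident macrophages and of the sinusoidal endothelium that were called were lower. Of 14 Kupffer cell and macrophage genes, 5 were lower and 0 higher, with a median of -0.16. Their mean level was 7.25 to 7.80 in Rapa mice (median 7.50) and 7.53 to 8.07 in AL mice (median 7.70). Clec4f, a lectin found on Kupffer cells, was at 7.81 to 8.93 in Rapa mice (median 8.49) and 8.58 to 9.41 in AL mice (median 9.13). In 8 Rapa mice it was below every AL mouse, a change of -0.61 ± 0.13 (adjusted p = 0.000655). With the background level as a covariate 1 of the 14 was lower, and the complement genes C1qa (-0.33 ± 0.10) and C1qb (-0.51 ± 0.13) and the Fc receptor subunit Fcer1g (-0.46 ± 0.14) lost their calls, with an adjusted p of 0.285, 0.0561 and 0.151. Of 12 markers of sinusoidal endothelial cells, 4 were lower and 0 higher, with a median of -0.09, and 3 under the background covariate. Mean levels were 7.53 to 7.87 in Rapa mice (median 7.70) and 7.76 to 7.94 in AL mice (median 7.82). Eng, the endothelial co-receptor for TGF beta, had 7.67 to 8.88 in Rapa mice (median 8.24) and 8.48 to 9.01 in AL mice (median 8.77), a change of -0.51 ± 0.11 (adjusted p = 0.00129), and Stab2, a scavenger receptor of these cells, changed by -0.41 ± 0.10 (adjusted p = 0.00283). Lists of stellate cells, cholangiocytes, T and NK cells, B cells, neutrophils, dendritic cells, erythroid cells, adipocytes, and pancreas and muscle had 0 members called by limma and by ANOVA contrasts. In that order 10, 2, 7, 4, 6, 2, 7, 2 and 6 members were tested, and 1, 1, 1, 0, 2, 0, 1, 0 and 2 had an unadjusted p under 0.05.

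Other genes with large decreases were Clec2d, a C-type lectin (-0.82 ± 0.21, adjusted p = 0.00409), Ptms, parathymosin (-0.81 ± 0.18, adjusted p = 0.00113), Wfdc2, a secreted protein with protease inhibitor domains (-0.72 ± 0.16, adjusted p = 0.00176), and Mylk, the myosin light chain kinase (-0.71 ± 0.18, adjusted p = 0.00383). Mtch2, a protein of the outer mitochondrial membrane, was higher, at 9.15 to 10.47 in Rapa mice (median 9.67) and 7.83 to 9.43 in AL mice (median 8.58). In 9 Rapa mice it exceeded every AL mouse, a change of 1.12 ± 0.16 (adjusted p = 8.88e-06). Among the remaining genes taken up because the study names them, the protease Capn2 was higher (0.47 ± 0.10, adjusted p = 0.000584), and the glycolytic enzyme Gapdh (-0.46 ± 0.11, adjusted p = 0.00358) and the cobalamin carrier Tcn2 (-0.34 ± 0.10, adjusted p = 0.0168) were lower. No probe of Rbx1, Hsp90aa1, Acss1, Osmr, Il15, Srxn1 or Cd81 was called by limma, and the brightest had changes between -0.23 ± 0.10 (Srxn1, adjusted p = 0.101) and 0.13 ± 0.05 (Osmr, adjusted p = 0.0619). The study names Tcn2, Srxn1 and Cd81 for rapamycin together with restriction, not for rapamycin alone. Of 20 clock genes 3 were higher and 0 lower, among them the nuclear receptor Rora (0.75 ± 0.16, adjusted p = 0.000595). Genes of complement and coagulation, which hepatocytes secrete, had 6 higher and 2 lower of 34 (median 0.01). The lower ones numbered 0 in the fits without AL 2, 4, 5, 6, 8 or 10 or without Rapa 3, 4, 9, 11 or 12.

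**Figure D4:**
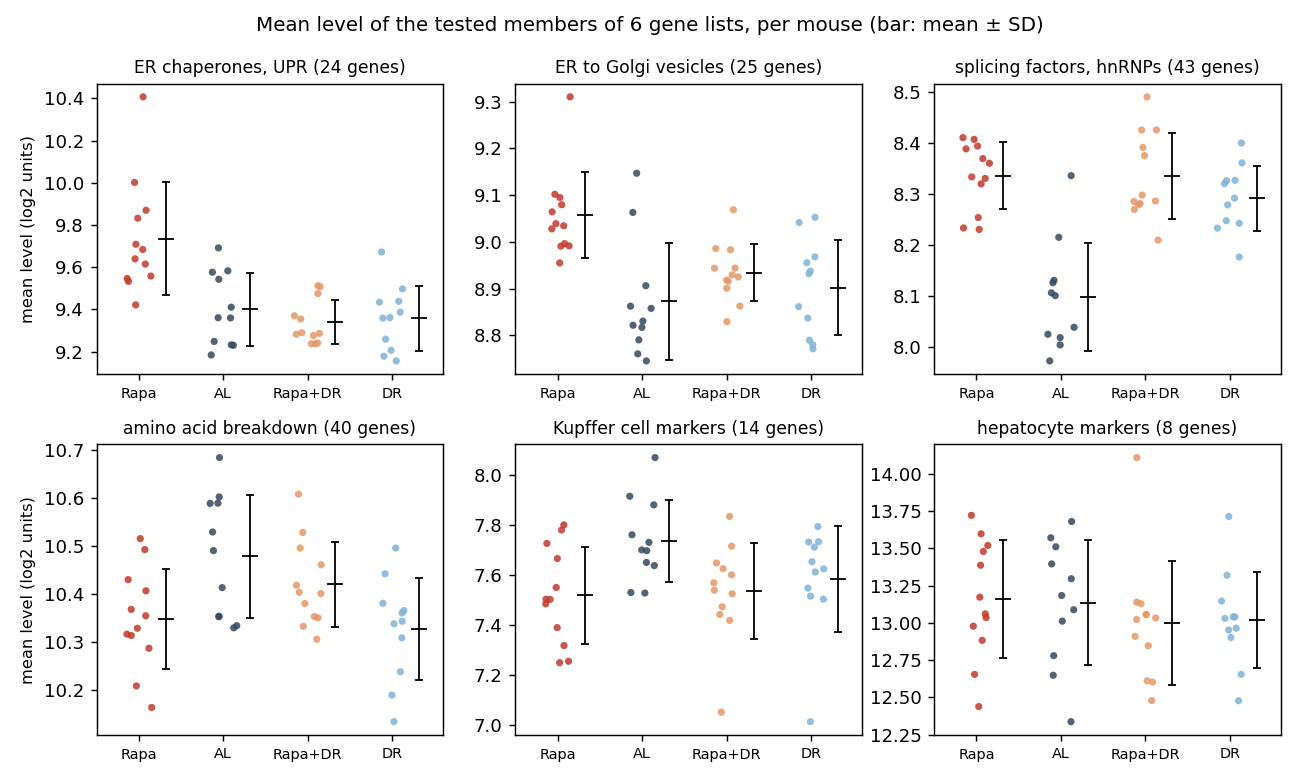
Mean level over the tested members of 6 gene lists in each mouse (log2 units), in Rapa, AL, Rapa+DR and DR mice from left to right; points are mice and bars the mean ± SD. The mean of the ER chaperone list has a median of 9.66 in Rapa and 9.36 in AL, that of splicing factors 8.35 and 8.10, and the hepatocyte markers overlap across all groups.

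The effect of rapamycin under full feeding was set against its effect in restricted mice, as Rapa+DR minus DR, which uses no mouse of the Rapa or AL groups. Of the probes higher in Rapa, 82.0% were also above 0 there, against 49.4% of all tested probes, but with a median of 0.11. Of the lower probes, 74.3% were below 0, against 50.6% of all, with a median of -0.08. The background signal, lower in Rapa than in AL, also lay lower in Rapa+DR (66.75 to 83.75) than in DR mice (78.75 to 89.75). Its part in these shares was not tested. An adjusted p under 0.05 in the same direction in restricted mice was reached by 54 of the 1223 higher and 18 of the 817 lower probes. Over all genes 2.02% were higher and 0.596% lower in Rapa+DR than in DR by that threshold. The effect in DR mice minus the effect in AL mice differed from 0 at an adjusted p under 0.05 for 2.16% of the genes and 358 of the probes tested, a count that was 51 with arrays centred but not divided by their SD and 687 without AL 3. This included 146 of the higher and 98 of the lower probes, which were chosen through the same AL and Rapa mice. The mean over the higher probes had a median of 8.36 in Rapa, 7.84 in AL, 8.36 in Rapa+DR and 8.25 in DR mice. Over the lower probes it was 8.71, 9.06, 8.78 and 8.85 in that order. By these medians DR mice without rapamycin lay nearer to Rapa than to AL mice. The probes were chosen for a difference between Rapa and AL in these same mice, a choice that itself sets AL mice apart. The medians describe these probes only and do not measure a likeness of DR to Rapa.

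For the ER genes Rapa+DR minus DR was -0.14 ± 0.27 (Creld2), -0.17 ± 0.19 (Syvn1), -0.0011 ± 0.13 (Calr) and 0.09 ± 0.13 (Ero1b), and the median over the list of 24 was 0.003. The difference between the diets was -1.34 ± 0.38 (adjusted p = 0.0446) for Creld2 and -0.68 ± 0.18 (adjusted p = 0.0367) for Calr. Compared directly with DR mice, Rapa mice were higher for Creld2 by 1.41 ± 0.27 (adjusted p = 0.000122), for Syvn1 by 1.16 ± 0.19 (adjusted p = 1.79e-05) and for Calr by 0.75 ± 0.13 (adjusted p = 3.42e-05). Ero1b, Pdia4, Hsp90b1, Hyou1 and Serp1 passed in that limma comparison as well. Dnajb9 (0.39 ± 0.23, adjusted p = 0.304), Selenof (0.40 ± 0.18, adjusted p = 0.155) and Atf4 (0.04 ± 0.11, adjusted p = 0.863) did not, nor did Sel1l and Sec61b. For Dnajb9, Selenof and Atf4 DR minus AL was 0.71 ± 0.23, 0.63 ± 0.19 and 0.54 ± 0.11. For the ribosomal gene Rps7, Rapa mice differed from DR mice by less than the error (-0.03 ± 0.13, adjusted p = 0.914), and Rapa+DR minus DR was -0.04 ± 0.13. Among the lower genes, Rapa+DR minus DR was 0.17 ± 0.21 for Cyp2b10 (difference between diets 1.33 ± 0.29, adjusted p = 0.0119), 0.41 ± 0.15 for Gstt3 (0.98 ± 0.21, adjusted p = 0.0113) and 0.22 ± 0.13 for Sardh (0.88 ± 0.18, adjusted p = 0.00635). Some genes had changes of nearer size under both diets. For Slc2a2 Rapa+DR minus DR was 0.67 ± 0.19 (adjusted p = 0.0447), and for Rbm3 it was 0.49 ± 0.14 (adjusted p = 0.0478). The difference between diets did not pass for either (-0.07 ± 0.27, adjusted p = 0.925 and -0.32 ± 0.20, adjusted p = 0.41), which does not show that the effects were equal.

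**Figure D5:**
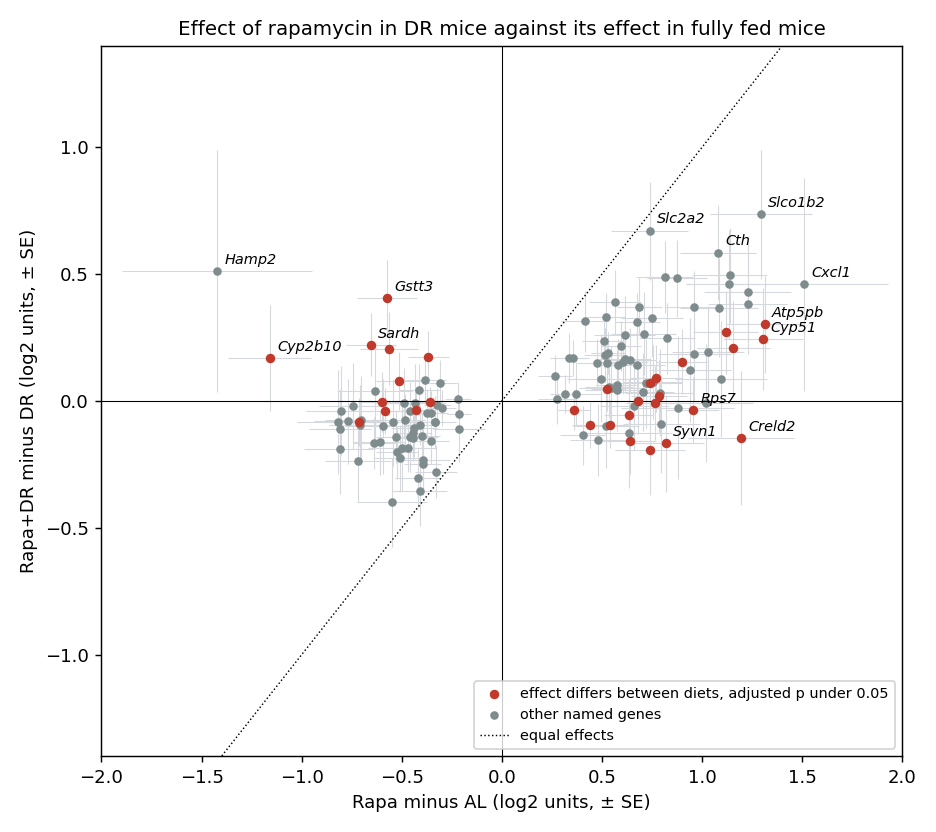
Change with rapamycin in restricted mice (Rapa+DR minus DR, vertical axis) against its change in fully fed mice (Rapa minus AL, horizontal axis) for 139 genes, in log2 units with standard errors; genes whose effect differed between the diets at an adjusted p under 0.05 are in red and the dotted line marks equal effects. All 139 genes lie nearer to 0 on the vertical axis, and Slc2a2 lies close to the line. Most of them were chosen for their change on the horizontal axis, and some because the study names them.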

How the data were processed

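Liver RNA of 46 mice was hybridised to Illumina mouse RefSeq-8 version 2 beadchips, 1 array per mouse. The authors deposited z-scores (unit: score), the log2 signal of each probe minus the mean of its array, divided by the SD of that array, over 25697 probes; the chips were read in Genome Studio. The fixed decimals of the scanner signals allowed each array's mean and SD to be recovered (tolerance 0.02 of a signal step), and the deposited z-scores were multiplied by the mean SD of the arrays (1.34) and added to their mean (7.05). Signals before normalization (92 columns of per-sample values) carry no sample names and were not used here. The number of arrays, 12 Rapa and 11 AL, limits the precision.

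A probe was tested where it was above the background on at least 1 array (16492 probes, 7012 on every array), the background being the mode of the dim signals of an array with an upper tail of 0.02. One mean per group was fitted over all 46 arrays with limma 3.58.1 in R 4.3.3 (lmFit, eBayes), with Benjamini-Hochberg adjustment over all probes, in place of the ANOVA that the methods name, which was an alternative. The 15% difference of medians follows the methods. A gene was read on its probe with the highest mean. Symbols came from the platform annotation (23978 probes with 1 symbol, 1719 with none). Single array measures were compared by permutation tests with 100000 resamples. On simulated data with 16492 probes for Rapa against AL, 58% of probes changed 1.2-fold, 88% of those changed 1.5-fold and 100% of those changed 2-fold were called. Nothing in the labels says that mice shared a cage or a batch.

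Genes named are the 12 largest increases and decreases among called genes above background on every array of Rapa or of AL, up to 4 called members of each list with the largest change, and genes that the study names for rapamycin or, for Tcn2, Srxn1 and Cd81, for rapamycin with restriction. Hsp90b1, Hyou1, Sel1l, Tsc2, Fkbp8, Tbc1d7, Depdc5, Glmp and Zc3h7a lie outside that rule and were chosen after their values were seen, to complete a list or because mice did not overlap. So were Hspa5, Dnajc3, Pdia6, Derl3, Alg12, Acnat2, Calr4, Hnrnpa3 and Pan2. The members and lists were chosen with earlier results of these data known. Alternatives were quantile normalization, arrays centred but not divided by their SD, no filter and a stricter filter on dim probes, the 23 arrays alone, array weights, the replicate number as a block, ANOVA contrasts, the background level as a covariate, a 30% difference of medians, leaving out each mouse, and, chosen after seeing the data, leaving out Rapa 2 and Rapa 3 together. Promoters were read from RefSeq (build GRCm38.p6) with Python 3.11.15.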

Additional observations from a re-analysis of the deposited data

Results flagged for a closer look

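The effect of rapamycin in restricted mice (Rapa+DR minus DR) was compared with its effect under full feeding (Rapa minus AL) by an interaction term in limma. Of the 139 genes examined, 31 had an adjusted p under 0.05 for that difference, from 0.00239 to 0.0487. Most of the genes were chosen for their change between Rapa and AL, which is one side of this difference, so their number is a description. The values below are the effect in restricted mice minus the effect in fully fed mice, in log2 units. A negative value belongs to a gene that was higher in Rapa than in AL and changed less or the other way in restricted mice, and a positive value to one that was lower.

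Among genes that were higher in Rapa, those of ER folding, entry and vesicle traffic were Creld2 (-1.34), Syvn1 (-0.986), Serp1 (-0.945), Ostc (-0.776), Ssr3 (-0.766), Calr (-0.683), Ero1b (-0.682), Gosr2 (-0.534) and Bet1 (-0.482). Genes of the ribosome, ubiquitin conjugation and the proteasome were Rps7 (-0.992), Rps6 (-0.689), Ube2b (-0.669), Ube2n (-0.396) and Psma4 (-0.635). Genes of sterol synthesis and its control, mitochondria and bile canaliculi were Cyp51 (-1.06), Insig2 (-0.932), Atp5pb (-1.01), Acadm (-0.796), Mtch2 (-0.848) and Atp8b1 (-0.746). For Rps7 the SE was 0.185 and the adjusted p 0.00239, and for Creld2 they were 0.375 and 0.0446. The level in DR mice without rapamycin differed among these genes. DR minus AL was 0.99 ± 0.13 for Rps7, 0.64 ± 0.13 for Rps6, 0.89 ± 0.21 for Cyp51 and 0.41 ± 0.09 for Psma4. It was -0.22 ± 0.27 for Creld2, -0.34 ± 0.20 for Syvn1, -0.07 ± 0.13 for Calr and 0.02 ± 0.08 for Ube2n.

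Among genes that were lower in Rapa, enzymes of drug, amino acid and energy metabolism were Cyp2b10 (1.33), Cyp1a2 (0.593), Gstt3 (0.981), Sardh (0.876), Prodh (0.769) and Ogdh (0.544). Other such genes were Ctsz (0.629), Eng (0.592), Gpr182 (0.54), Rxra (0.395) and Kars (0.356), of which Ctsz is lysosomal, Eng and Gpr182 mark sinusoidal endothelium, Rxra is a nuclear receptor and Kars a tRNA synthetase. For Cyp2b10 the SE was 0.293 and the adjusted p 0.0119. No cause of these differences was tested.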

How the results depend on the processing

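Of the 138 called genes among the 139 examined, 121 kept their call in every fit without 1 mouse and 96 in all other fits made for single genes that gave them a value (the 30% difference of medians was applied to the probe counts only), and none reversed. Without Rapa 2 and Rapa 3 together, chosen after seeing the data, 125 kept their call, with 1198 probes higher and 631 lower and 201 for the difference between diets. Leaving out each mouse gave 1044 to 1377 higher and 637 to 981 lower probes, and the difference between diets 210 to 687 probes. With arrays centred but not divided by their SD, 825 probes were higher and 431 lower, 33 of the genes examined lost their call and the difference between diets had 51 probes. Those not marked for it above include Hsp90b1, Sec61b, Eef1b2, Psma4, Psme1, Atg12, Hexa, Fkbp8, Stk11, Insig2, Lpin2, Aldoa, Prodh, Gclm and Cat. Requiring medians to differ by more than 30% left 703 higher and 299 lower. The difference between diets (358 probes) had 669 under quantile normalization and 1508 with array weights. These causes were not tested. In the simulation 58% of changes of 1.2-fold were called, so smaller changes are often missed.

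Replicate numbers are shared by Rapa and AL mice. Of 11 same-numbered pairs 7 correlated over 0.1 (from -0.375 to 0.66), and 3 of 11 Rapa mice were closest to the AL mouse of their own number. Whether the numbers stand for a shared batch or order was not tested. With the replicate number as a block, 1246 probes were higher and 884 lower, and 12 of the genes examined lost their call, among them Cxcl1 (adjusted p = 0.0596), Gstt3 (0.0707), C1qb (0.0513) and Fcer1g (0.0846). Of the 14 Kupffer cell markers 2 were then lower.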
